A study of Drosophila melanogaster with 2 samples.

Results

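The 10 genes described here encode the core of the Drosophila tumour necrosis factor (TNF) and Jun N-terminal kinase (JNK) pathway. They are egr, grnd, wgn, Tak1, Tab2, slpr, msn, hep, bsk and puc, found by symbol in the Ensembl release 115 annotation of the dm6 genome among 18164 genes, 13945 of them protein-coding. A peak belonged to a gene when its summit, the highest point of the peak, lay in the gene or within 2000 bp of it. By this rule 24 of 7534 conservative peaks and 209 of 90143 ranked peaks on the 6 chromosome arms lay at the 10 genes. The peaks come from ChIP-seq of Xrp1, a bZIP transcription factor with an AT-hook, in Drosophila melanogaster. The material was whole embryos of 8 to 24 hours from transgenic flies with an Xrp1-eGFP fusion protein, and antibody to GFP pulled down chromatin sonicated to between 200 and 800 bp. The series has 1 group with 2 biological replicates. No other genotype, treatment or stage was analysed here, so nothing below compares conditions, and cell types of the embryo cannot be told apart.

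In this pathway the TNF ligand Eiger binds receptors at the cell surface, and a relay of kinases then passes the signal on to Basket, the fly JNK. JNK drives transcription of its targets, among them the phosphatase gene puckered, whose product dephosphorylates JNK and limits the signal. In the fly embryo the kinase relay is known for dorsal closure, in which the epidermis closes over the back, and in imaginal discs for cell death, wound healing and the removal of loser cells.

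The sequences at the strongest conservative peak are given for 5 of the 7 genes that had one, all but egr and Tab2. Each line gives the 101 bases centred on the summit, on the plus strand of dm6 and read 5′ to 3′. Capitals mark an 8-base word 1 mismatch away from a C/EBP-like word, the kind of site that bZIP factors of this class bind. The C/EBP-like words searched were TTGCGCAA, TTGCACAA and TTGCATAA on both strands. The windows lie at chr2L:18484843-18484943 (grnd), chrX:20519165-20519265 (Tak1), chr3L:2581435-2581535 (msn), chr2L:10249806-10249906 (bsk) and chr3R:8114024-8114124 (puc).
grnd: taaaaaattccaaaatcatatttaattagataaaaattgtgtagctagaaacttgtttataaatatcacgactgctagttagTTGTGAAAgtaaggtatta
Tak1: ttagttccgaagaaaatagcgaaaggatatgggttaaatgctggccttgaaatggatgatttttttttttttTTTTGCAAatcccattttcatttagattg
msn: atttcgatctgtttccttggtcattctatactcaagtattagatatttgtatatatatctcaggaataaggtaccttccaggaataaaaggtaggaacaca
bsk: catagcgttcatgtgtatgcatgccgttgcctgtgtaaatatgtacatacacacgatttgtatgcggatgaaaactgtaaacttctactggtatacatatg
puc: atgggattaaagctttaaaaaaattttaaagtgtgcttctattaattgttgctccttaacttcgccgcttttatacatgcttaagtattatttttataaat
The windows of grnd and Tak1 each held 1 such word, 36 and 26 bp from the summit, and those of msn, bsk and puc held none. All 5 were rich in A and T, with a GC content of 23.8% at grnd, 30.7% at Tak1, 32.7% at msn, 38.6% at bsk and 25.7% at puc. An exact C/EBP-like word was found in 0 of the 24 windows of conservative peaks at the genes, which allows a share of up to 12.5%, against 1.81% of all conservative peaks. Over ranked peaks with a global IDR above 0.05, a measure defined below, the share was 1.74%, so the word was about as frequent there. With 1 mismatch the count was 6 of 24 (25%), against 26.6% of all conservative peaks. The windows of the strongest peaks of egr and Tab2, not printed here, held 1 and 2 such words. A match is a description of the letters and not a measured site.

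Conservative peaks were found at 7 of the 10 genes, and most of them lay at only 2. The conservative list is the authors' stricter set, thresholded on the irreproducible discovery rate (IDR) between the replicates, and the ranked list holds all peaks of that comparison with no threshold applied. The global IDR is the expected share of irreproducible peaks among those ranked at least as well. The kinase gene msn had 10 conservative peaks and the phosphatase gene puc had 8. The ligand gene egr had 2, and grnd, Tak1, Tab2 and bsk had 1 each. The receptor gene wgn and the kinase genes slpr and hep had 0. The share of genes with a conservative peak was 7 of 10 here, against 38.5% of all genes and 41.5% of protein-coding genes. Because the 10 genes were chosen with earlier results of these data known, this share is a description only. The 10 genes are long, with a median of 9944 bp against 2166 bp over all protein-coding genes, and a longer gene offers more room for a peak. Among protein-coding genes of their length range, 2605 to 31694 bp, the share was 53.3%. Only the range was matched, not the lengths within it, and the third quartile over all protein-coding genes was 4998 bp. On the X chromosome 1 of 4 of the genes had a peak (Tak1, but not wgn, slpr or hep), against 41.6% of protein-coding genes there, and on the other arms 6 of 6 had one, against 41.5%. This split by chromosome was not among the planned comparisons, and gene length was not matched in it.

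**Figure D1:**
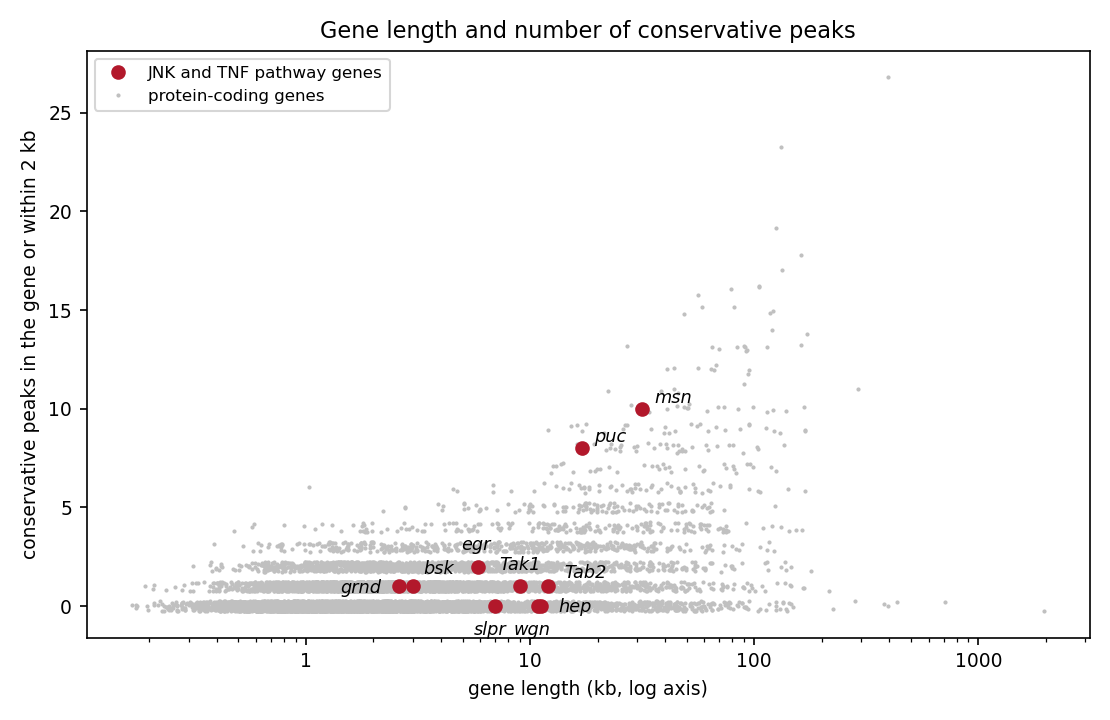
Conservative peaks in the gene or within 2 kb (vertical axis, number) against gene length (kb, log axis), with the 10 JNK and TNF pathway genes as red points and the 13945 protein-coding genes as grey points, which are jittered vertically to keep them apart. The points of msn (10 peaks) and puc (8 peaks) stand above the other 8, which have between 0 and 2.

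The egr gene encodes Eiger, the TNF ligand. It lies on 2R at 10078366 to 10084210, on the plus strand. Its stronger conservative peak, at 10081761 to 10081873, was the narrowest at the 10 genes (113 bp). It lay in intron 2 of 6 of the canonical transcript, an intron of 1009 bp, and its summit was 3455 bp downstream of the transcription start site (TSS) of egr. A closer TSS, 496 bp away, belonged to snoRNA:Or-ACA6. The peak had a signal of 249 and rank 1486 of the conservative list, where signal is the authors' own value of peak strength. In the ranked lists of the single replicates, each on its own scale, it had a signal of 151 in replicate 1 and 103 in replicate 2. It was in the thresholded list of both. The other peak of egr, at 10077835 to 10078198, lay 349 bp upstream of the TSS and had a signal of 85.9. Its signals were 64.4 in replicate 1 and 26.1 in replicate 2, and it was in neither replicate's thresholded list.

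The receptors Grindelwald and Wengen bind Eiger, and their genes differed in whether they had a conservative peak. The gene of Grindelwald, grnd, on 2L at 18485417 to 18488021, had 1, at 18484711 to 18485074. It lay 524 bp upstream of the TSS of grnd and 380 bp upstream of that of CG10283, the nearer gene, so it cannot be assigned to grnd alone. Its signal was 98.2 (rank 4857), with 80.1 for replicate 1 and 28.7 for replicate 2. It was in the thresholded list of replicate 1 only. The gene of Wengen, wgn, on X at 18624042 to 18634908, had 24 ranked peaks and no conservative one. The strongest had a signal of 40.2 and lay downstream of the gene at 18621872 to 18622235, with a global IDR of 0.209. The lowest global IDR among the 24, rounded, was 0.103.

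Tak1 is a MAP kinase kinase kinase of the JNK relay that also acts in the Imd immune pathway, and Tab2 is its binding partner. Tak1 lies on X at 20515908 to 20524928 and had 1 conservative peak, at 20519033 to 20519396, in intron 6 of 7 (4101 bp). The summit was 967 bp upstream of an internal TSS of Tak1. Its signal was 112 (rank 4225), with 73.2 in replicate 1, where it was in the thresholded list, and 40.8 in replicate 2, where it was in the ranked list alone. A ranked peak 202 bp upstream of the gene's TSS had a signal of 53.1 and a global IDR of 0.0297 and was not in the conservative list. Tab2 lies on 2R at 19292529 to 19304508 and had 1 conservative peak, at 19293470 to 19293738, in intronic sequence 1126 bp downstream of its TSS. With a signal of 315 (rank 1042) it was the strongest of the conservative peaks at the 8 genes other than msn and puc. The replicates placed it differently. Replicate 1's thresholded list had a peak at 19293650 to 19293854 (signal 223, rank 924) and replicate 2's had one at 19293526 to 19293609 (signal 128, rank 800). The summits were 105 bp apart and the peaks did not overlap, with a gap of 40 bp.

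**Figure D2:**
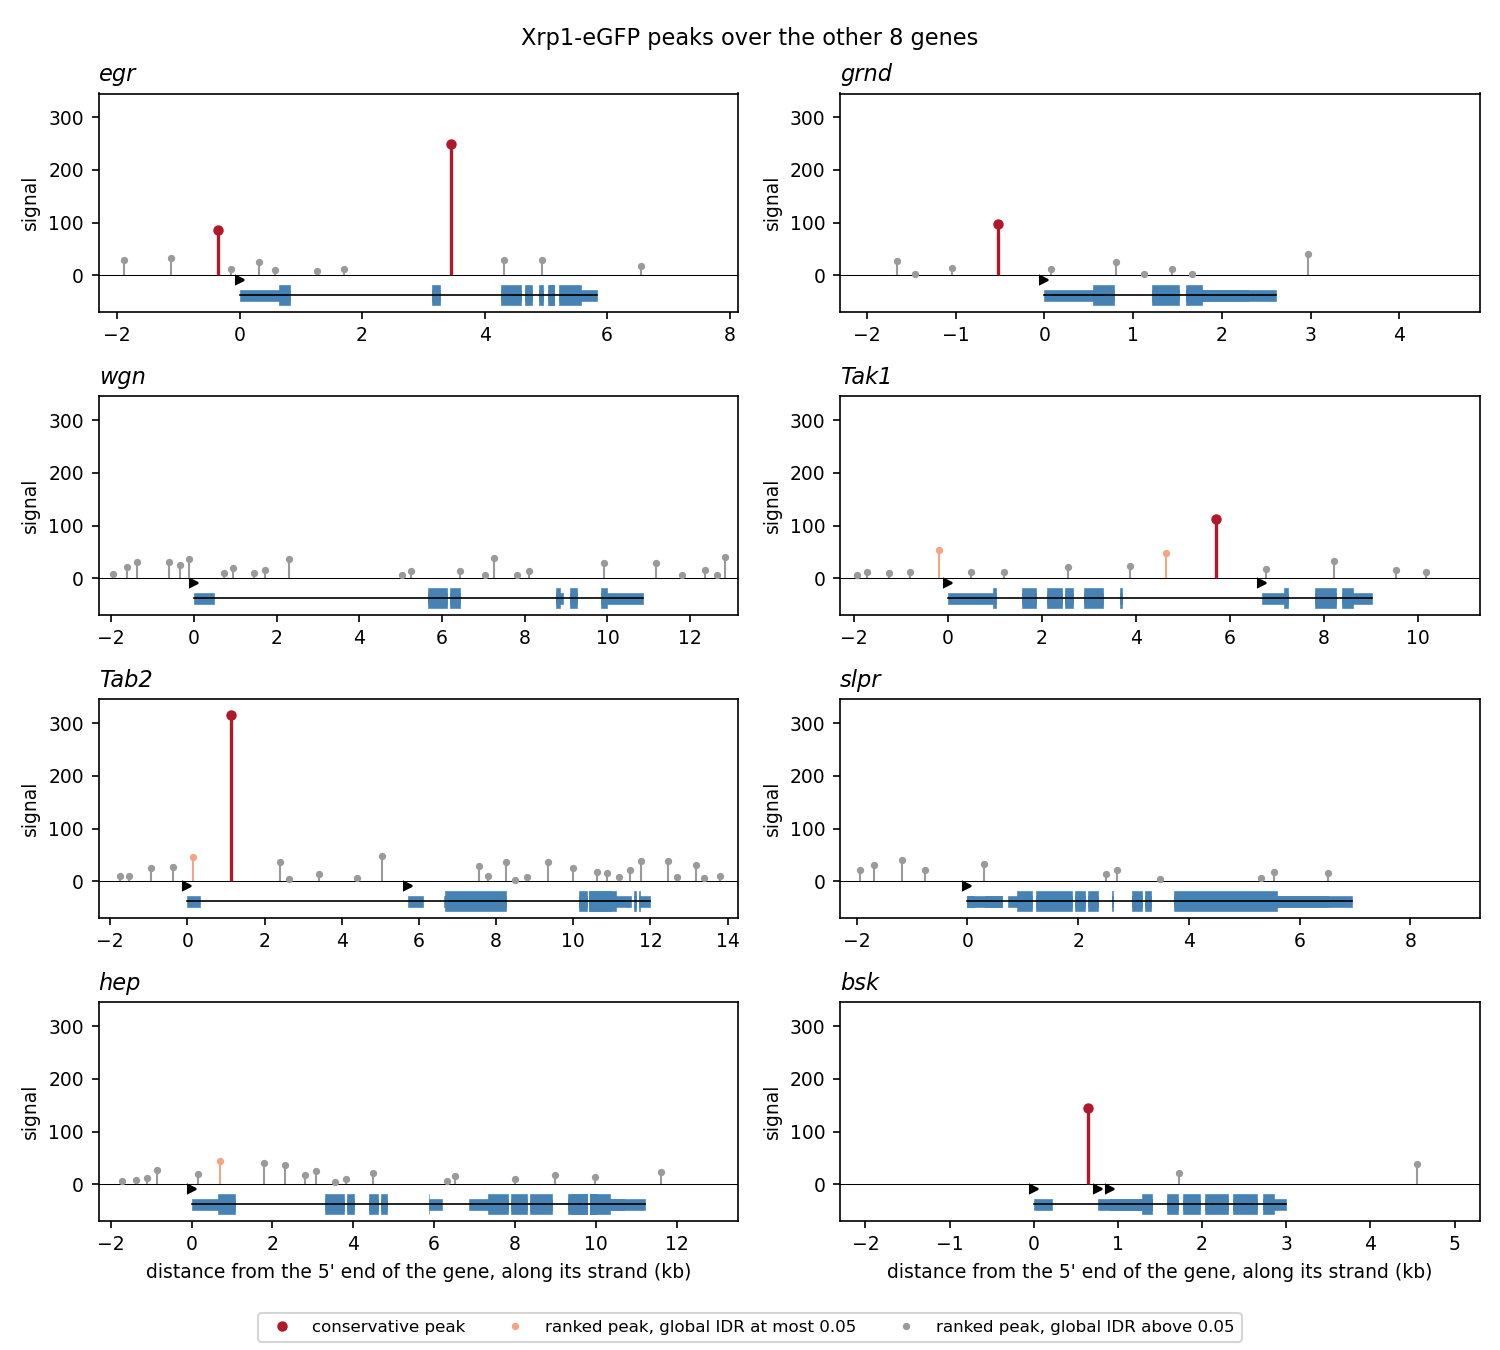
Peak signal (vertical axis, the authors' value) along egr, grnd, wgn, Tak1, Tab2, slpr, hep and bsk, by distance of the summit from the gene's 5′ end along its strand (kb). Red stems are conservative peaks, orange stems ranked peaks with a global IDR at most 0.05 and grey stems the other ranked peaks; below each axis thick blue blocks are coding sequence, thin blocks other exon sequence and arrowheads TSSs, and wgn, slpr and hep show no red stem.

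The kinases slpr and hep had ranked peaks only. Slipper (slpr) is a mixed-lineage MAP kinase kinase kinase, and its gene on X at 8170229 to 8177185 had 11 ranked peaks. The strongest, at 8178186 to 8178549, had a signal of 40.1 and a global IDR of 0.0608, with 26.3 in replicate 1 and 18.2 in replicate 2. It lay 1183 bp upstream of the TSS of slpr and 181 bp upstream of that of sdt, the nearer gene. Hemipterous (hep) is the MAP kinase kinase that phosphorylates Basket, and its gene on X at 13079205 to 13090434 had 19 ranked peaks. The strongest, at 13089551 to 13089914, had a signal of 44.2, a global IDR of 0.0386 and signals of 29.9 in replicate 1 and 19.6 in replicate 2. Its summit lay in coding sequence, 701 bp downstream of the TSS. The distance from the gene to the next conservative summit was 9677 bp at hep, 10256 bp at wgn and 12745 bp at slpr, so a window of 5000 bp found none at these 3 genes either.

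Misshapen (msn), a Ste20-family kinase at the top of the relay, had the most peaks of the 10 genes. The gene lies on the minus strand of 3L at 2554847 to 2586540. Of its 10 conservative peaks 9 lay in introns 2 and 3 of 18, with 4 in intron 2 (6084 bp) and 5 in intron 3 (11640 bp). These 9 summits spread over 13715 bp. None lay in the other introns or the exons. The strongest, at 2581354 to 2581633, had a signal of 430 (rank 597), with 288 in replicate 1 and 140 in replicate 2. The second, at 2583070 to 2583270, had a signal of 290 (rank 1198), with 218 in replicate 1 and 79.0 in replicate 2. These 2 peaks of intron 2 lay 4769 and 3077 bp downstream of the nearest msn TSS. The peak at 2578836 to 2578960 in intron 3 had a signal of 216 (139 in replicate 1 and 77.7 in replicate 2). The peak at 2584131 to 2584494 in intron 2 had a signal of 183 (134 in replicate 1 and 52.6 in replicate 2). The peak at 2570416 to 2570779 in intron 3 had a signal of 148 (95.8 in replicate 1 and 53.7 in replicate 2). All 5 were in the thresholded list of both replicates. The other 5 had signals of 59.3 to 122. One of these, at 2587175 to 2587538 (signal 103), was upstream of the gene, 817 bp from the msn TSS and 99 bp upstream of the TSS of RpL8, a ribosomal protein gene.

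**Figure D3:**
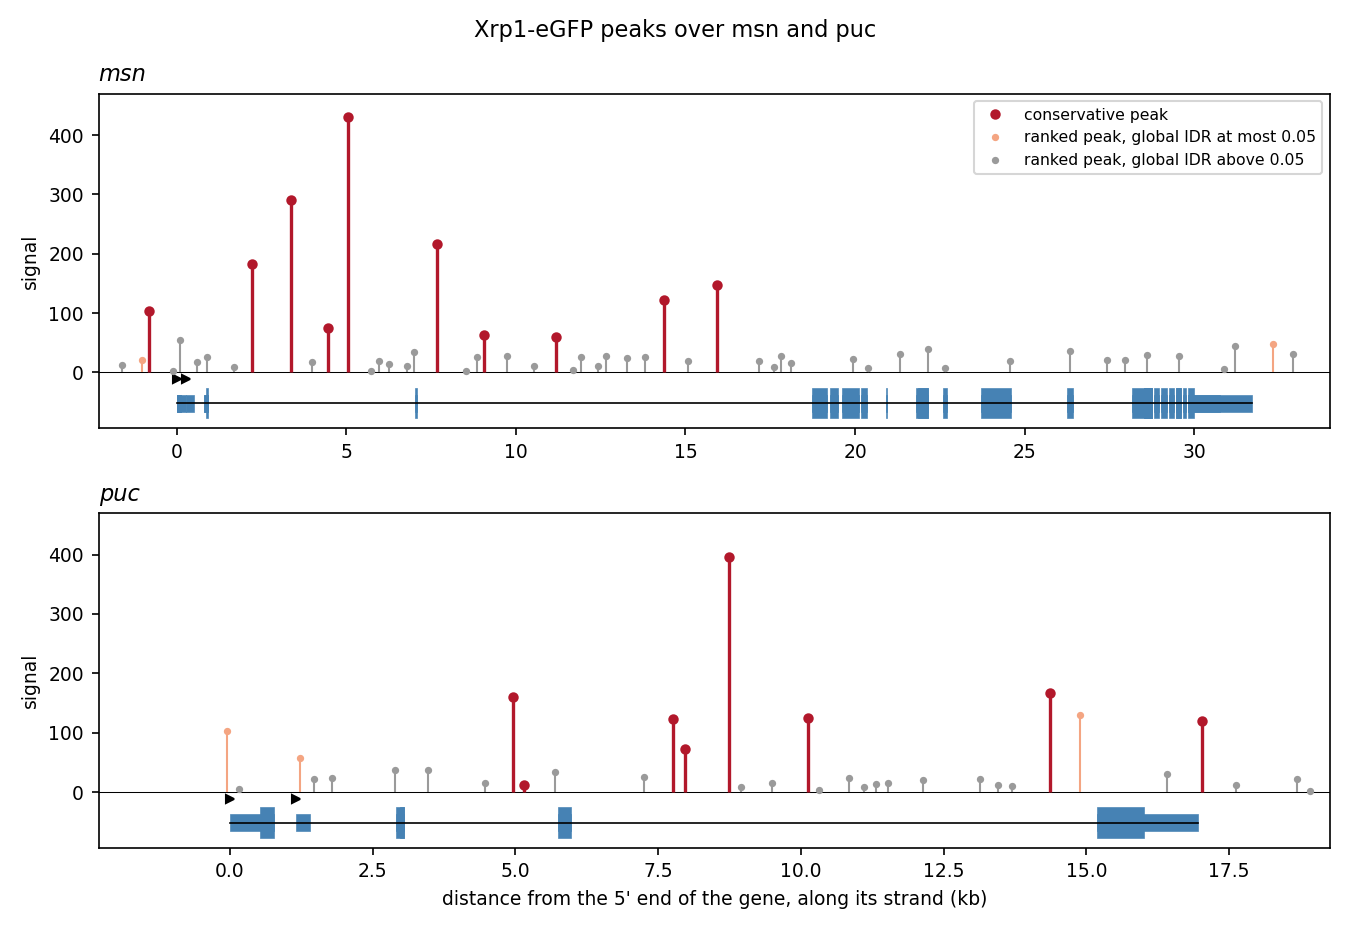
Peak signal (vertical axis, the authors' value) along msn (upper panel) and puc (lower panel) by distance of the summit from the gene's 5′ end along its strand (kb). Red stems are conservative peaks, orange stems ranked peaks with a global IDR at most 0.05, grey stems the other ranked peaks, thick blue blocks coding sequence, thin blocks other exon sequence and arrowheads TSSs; the tallest stems, 430 at msn and 396 at puc, stand in introns.

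Basket (bsk), the JNK itself, had 1 conservative peak, and it was close to a TSS. The gene lies on the minus strand of 2L at 10247502 to 10250501, and the peak at 10249674 to 10250037 had an intronic summit, which preceded an internal TSS of bsk by 114 bp. Its signal was 144 (rank 3101), with 69.0 in replicate 1 and 72.4 in replicate 2, and it was in the thresholded list of both. No other of the genes with 1 peak had a summit within 500 bp of its own TSS, and the peak of grnd was just outside this distance.

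Puckered (puc), the phosphatase that acts on Basket and a target of the pathway, had the highest density of peaks when overlapping peaks were counted separately. The gene lies on 3R at 8105332 to 8122294. It had 2 conservative peaks in intron 2 (2698 bp) and 5 in intron 3 (9210 bp), the last of its 3 introns, and 1 downstream. The intronic summits spread over 9408 bp. The strongest peak, at 8113948 to 8114182, had a signal of 396 (rank 699), with 287 in replicate 1 and 108 in replicate 2. It lay 7586 bp downstream of the nearest puc TSS and 71 bp upstream of the TSS of lncRNA:CR44331, a noncoding gene inside intron 3. The peak at 8119511 to 8119874 had a signal of 167 (122 in replicate 1 and 54.7 in replicate 2). The peak at 8110103 to 8110466 had a signal of 160 (110 in replicate 1 and 57.0 in replicate 2). The next, at 8115269 to 8115632, had a signal of 125 (67.8 in replicate 1 and 62.2 in replicate 2). These 4 were in both thresholded lists. The fifth, at 8112918 to 8113281, had a signal of 124, with 80.6 in replicate 1 and 41.7 in replicate 2, and was in the thresholded list of replicate 1 alone. The peak downstream of the gene (signal 119) lay 361 bp upstream of the TSS of CG7878. The 2 remaining peaks, with signals of 73.3 and 11.3, each overlapped a stronger peak of puc. The weakest shared the replicate 1 peak of the peak with a signal of 160, and no peak of replicate 2 contained its summit. Merging overlaps leaves 22 regions at the 10 genes and 6 at puc.

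The TSS of puc had a peak that the conservative list lacked. It lay at 8105102 to 8105465, 48 bp upstream of the TSS, with a signal of 102 and a global IDR of 0.00088. In the ranked lists of the replicates its signals were 60.5 in replicate 1 and 40.6 in replicate 2, and it was in neither thresholded list. The highest global IDR of a conservative peak at the 10 genes was 0.00884. At these genes no other ranked peak outside the conservative list had a global IDR as low as 0.01, and why it is missing was not tested. A further peak of puc at 8120036 to 8120399, in intron 3, had a signal of 130 but a global IDR of 0.0333. Its signals were 109 in replicate 1 and 21.9 in replicate 2.

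The clustering at msn and puc was set beside other genes as a description, since both were singled out after their counts were seen. Per kb of gene and 2 kb flanks, puc had 0.382 and msn 0.280 conservative peaks, against 0.0642 over the other 8 genes and 0.0563 over the 6 arms. The cut of 8 peaks used next was not planned and equals the count of puc, so msn and puc pass it by construction. Of the 10 genes 2 had at least 8 peaks, against 0.889% of protein-coding genes. In replicate 2's thresholded list, where msn had 7 summits and puc 6, the count was 0 of 10, against 0.172% of protein-coding genes. With overlapping peaks merged, msn alone reached 8, or 1 of 10, against 0.76%. Of the 5 genes that are at least 10 kb long 2 had at least 8, against 6.27% of protein-coding genes of that length, whose median was 1 peak. A density as high as that of puc was reached by 16 of the 1977 protein-coding genes of at least 10 kb (0.809%), and one as high as that of msn by 53 (2.68%), each count including the gene itself. These densities count overlapping peaks separately. With overlaps merged puc had 6 regions and msn 10, and densities of merged regions were not computed.

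Most of the peaks at the 10 genes lay in introns, and most were more than 500 bp from any TSS. Of the 24, 20 were intronic, 3 upstream and 1 downstream of the gene, and 0 lay in an exon of the gene. A summit inside an annotated gene and in no exon of any gene was seen in 19 of 24 (79.2%), against 49.7% of all conservative peaks. The difference of 1 between these counts is a peak of puc that lies in an exon of lncRNA:CR44331. All conservative peaks include those far from any gene, which the rule cannot select, so 79.2% and 49.7% are not like for like. A summit within 500 bp of any TSS was seen in 7 of 24 (29.2%), against 39.5%. At the level of genes, 2 of 10 (egr and bsk) had a conservative summit within 500 bp of their own TSS, close to the 23.2% of protein-coding genes. The share was above that of protein-coding genes at 1000 bp, with 5 of 10 against 27.1%. It was also above with ranked peaks up to a global IDR of 0.05, with 5 of 10 against 30.2%. The share was below that of protein-coding genes at 250 bp, with 1 of 10 against 18.7%. It was also below without replicate 1 (1 of 10 against 14.6%) and without replicate 2 (1 of 10 against 23.0%). For 11 of the 24 peaks the nearest TSS was that of another gene. Of the 24 peaks, 18 belong to msn and puc, so these shares largely describe those genes.

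The signals of the 24 peaks had a median close to that of the whole list. Their median was 125 with quartiles of 95.1 and 191, against a median of 123 with quartiles of 84.1 and 211 over all conservative peaks. The strongest 25% of the list held 6 of the 24, against 25% of all conservative peaks by construction. The highest signal at the 10 genes, 430 at msn, was well below the list's maximum of 3073. By the strongest peak the genes ran from msn (430) and puc (396) through Tab2 (315), egr (249), bsk (144) and Tak1 (112) to grnd (98.2). The order was not the same in the single replicates. Replicate 1's list had 69.0 at bsk, 73.2 at Tak1 and 80.1 at grnd, and replicate 2's had 72.4 at bsk, 40.8 at Tak1 and 28.7 at grnd. Tab2 stood below puc and above egr in replicate 1 (223), but in replicate 2 the peak containing its summit had a signal of 25.5, below the strongest peak of each of the 6 other genes, while the stronger peak beside it (128) stood above puc (108). At msn and puc replicate 1's signals were nearly equal, with 288 at msn and 287 at puc.

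**Figure D4:**
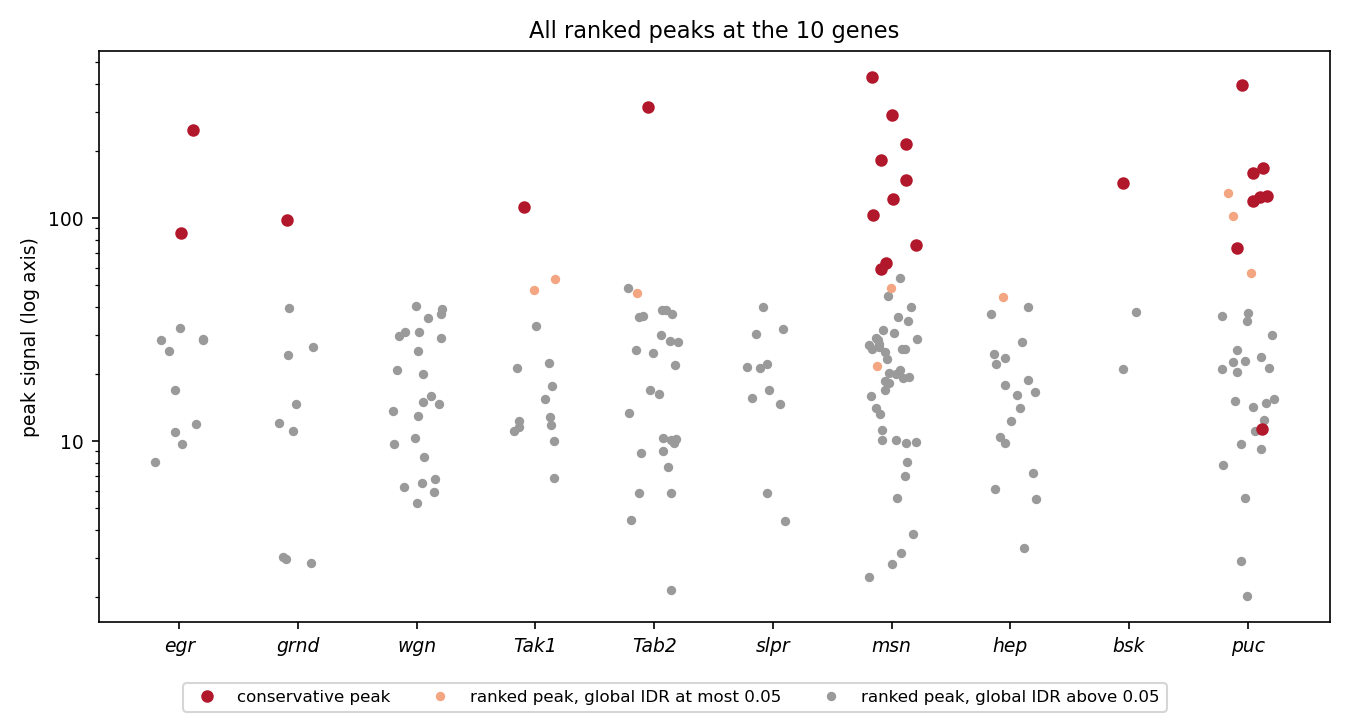
Signal (log axis, the authors' value) of all 209 ranked peaks at the 10 genes, ordered by role from ligand to phosphatase, with conservative peaks in red, other peaks with a global IDR at most 0.05 in orange and the rest in grey. The red points of 7 genes lie above the grey points of the same gene, with the exception of 1 peak of puc with a signal of 11.3.

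Below the threshold the genes had many weak peaks. Of the 209 ranked peaks 24 were conservative (11.5%), against 8.36% of all ranked peaks. The other 185 comprised 9 with a global IDR at most 0.05, with a median signal of 48.5 and a range of 21.7 to 130, and 176 above 0.05, with a median signal of 17.0 and a range of 2.01 to 54.1. Numbers of ranked peaks were 53 at msn, 34 at puc, 28 at Tab2, 24 at wgn, 19 at hep, 15 at Tak1, 12 at egr, 11 at slpr, 10 at grnd and 3 at bsk. Among the 3 genes with no conservative peak, hep had 1 ranked peak with a global IDR at most 0.05 and slpr and wgn had none.

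Replicate 1's own list held more of the peaks than replicate 2's. The summit lay inside a peak of replicate 1's thresholded list in 21 of 24 (87.5%), against 78.7% of all conservative peaks, and inside one of replicate 2's in 14 of 24 (58.3%), against 53.2%. It lay inside peaks of both in 14 of 24 (58.3%), against 49.2%. By this summit rule, 7 of the other 10 peaks were in replicate 1's thresholded list alone and 0 in replicate 2's alone. The 3 in neither were the upstream peak of egr and the weakest 2 of msn. The 7 include Tab2, where replicate 2's thresholded peak overlapped the conservative peak but missed its summit. With at least 1 bp of overlap instead, 16 of 24 were in both lists, and with at least 50% of both peaks, 11. Replicate 1's thresholded list, with 7520 peaks, had a summit at 7 of the 10 genes, against 41.4% of protein-coding genes. Replicate 2's, with 4402 peaks, had one at 5 of the 10 (egr, Tab2, msn, bsk and puc), against 29.2%. The genes that lost their peak in replicate 2 were grnd and Tak1.

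**Figure D5:**
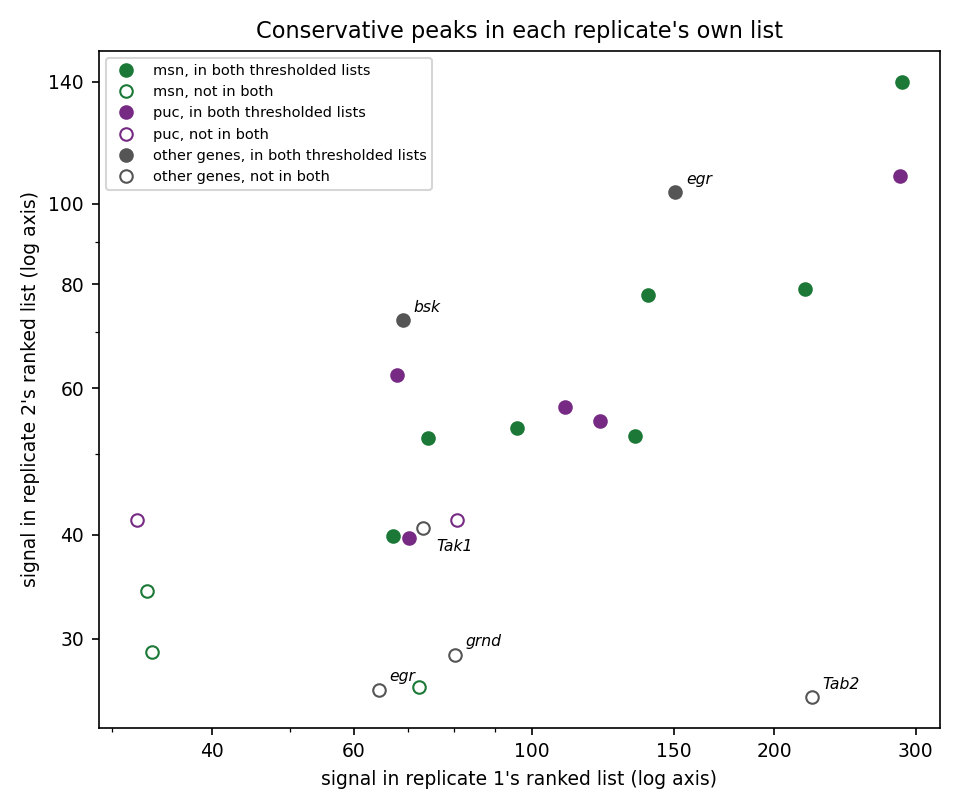
Signal of conservative peaks in replicate 2's ranked list (vertical, log axis) against replicate 1's ranked list (horizontal, log axis), for the 23 of 24 peaks with a value in both, with msn in green, puc in purple and other genes in grey. Filled points were in both thresholded lists and open points were not; the Tab2 point at 223 and 25.5 uses the replicate 2 peak that contains the conservative summit, not that replicate's stronger peak beside it.

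The windows of all 24 conservative peaks had a median GC content of 33.7%, from 18.8 to 57.4%, against 31.7% over all conservative peaks and 43.6% over ranked peaks with a global IDR above 0.05. Beside the C/EBP-like words, 5 other words were searched on both strands in the same windows, and none was found in any of the 24. The composite C/EBP-ATF word TGATGCAA occurs in 0.265% of all conservative peaks, the AP-1 word TGACTCA, which Jun and Fos dimers bind, in 0.81% and the CRE word TGACGTCA in 0.0929%. The DRE word TATCGATA occurs in 1.21% and the GAGA word GAGAGAG in 1.43%. Over ranked peaks with a global IDR above 0.05 these shares were 0.3%, 0.796%, 0.143%, 0.379% and 1.42%, in the same order. A missing word says only that these letters are not in these windows.

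Other genes of the pathway were taken from 4 lists with 47 genes in all, of which 31 (66.0%) had a conservative peak, 93 peaks in total, against 41.5% of protein-coding genes. Gene length was not matched in this comparison. The 4 lists were chosen with earlier results of these data known, so the shares here and below are descriptions only. Replicate 1's thresholded list had a summit at 34 of the 47 and replicate 2's at 25, against 41.4% and 29.2% of protein-coding genes. Replicate 2's counts were 12 of 17 upstream regulators and 5 of 6 transcription factors and corepressors. They were 4 of 14 targets and 4 of 10 genes of the Imd branch. Replicate 1's were 14, 5, 10 and 5 in the same order. Upstream of JNK, 12 of 17 kinases, adaptors and other regulators had a peak, against 41.5% of protein-coding genes. The strongest were at Mkk4, the other JNK kinase gene (signal 1167, rank 74, 175 bp upstream of its TSS and 113 bp upstream of that of SLIRP2), at POSH, a scaffold gene (678, 95 bp upstream), and at Mekk1, a MAP kinase kinase kinase gene (572, intronic). The Mkk4 peak had a higher signal than any peak of the 10 genes.

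Among transcription factors and corepressors of the pathway 5 of 6 had a conservative peak, against 41.5% of protein-coding genes. The strongest lay 195 bp upstream of Atf3, a bZIP gene (signal 725), and in an intron of aop, which encodes an ETS repressor (712, one of 11 peaks there). The strongest peak of Jra, the fly Jun gene (142), was downstream of the gene and 43 bp upstream of the TSS of 14-3-3zeta. Ets21C, an ETS factor gene, had 0. Among transcriptional targets of JNK 8 of 14 had a peak, against 41.5% of protein-coding genes. The strongest were at the cell death gene hid (366, 297 bp upstream) and the BMP ligand gene dpp (218, intronic). Next was Pvf1, which encodes a ligand of the PDGF and VEGF family (182, intronic). There was no conservative peak at Mmp1, Ilp8, upd1, upd2, upd3 and rpr. In the Imd branch, which Tak1 also serves, 6 of 10 had a peak, against 41.5% of protein-coding genes. The strongest were at the ubiquitin-conjugating enzyme genes eff (679, intronic) and ben (241, 137 bp upstream). The third was Diap2, a ubiquitin ligase gene, whose strongest peak (198) was downstream of the gene and nearest to the TSS of bdg. There was none at Dredd, key, Rel and Uev1A.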

How the data were processed

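Xrp1-eGFP ChIP-seq of 2 biological replicates was analysed as peak lists. The embryos' age follows the source name in the labels, with which the separate age entry does not match. The deposited notes say that the authors aligned reads to dm6, called peaks with a control and passed them through the IDR procedure. No aligner or peak caller is named in the sources used here. Per the files, the deposited signal is the authors' own peak value, whose scaling to depth is not stated, so signals were compared only within a list. The authors' ranked lists hold −log10 of the global IDR, from which the IDR was computed. No counts were used, so read depth is unknown for both replicates, no test between groups was possible and peaks and genes are not replicates. Limits on a share of 0 use 3 counts and cover counting error only.

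Genes and TSSs came from Ensembl release 115 and sequence from the dm6 RefSeq assembly. Summits decided every assignment, and ranks follow the signal. A peak was found in a replicate when a peak of that replicate's list contained its summit. Motif windows reached 50 bp to each side. The genes named were the 10 genes with all their conservative peaks, or the strongest 5 where there were more, and of each pathway list up to 3 genes with the strongest peaks. Genes without a peak, and peaks of puc and Tak1 outside the conservative list, were named after their values were seen. The 10 genes and the lists were chosen with earlier results of these data known. The counting of peaks per gene was tested on simulated data. The scripts ran in Python 3.11.15 with pandas 2.3.3, NumPy 2.4.6 and SciPy 1.17.1, and figures were drawn with matplotlib 3.10.9.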

Additional observations from a re-analysis of the deposited data

How the results depend on the processing

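No paired analysis was possible because all samples belong to a single group. Of 63 alternatives, 52 left the count within 1.5 times its value and 11 moved it. The number of the 10 genes with a conservative summit within 500 bp of their own TSS, 2 against 23.2% of protein-coding genes, became 1 within 250 bp (against 18.7%), 5 within 1000 bp (against 27.1%) and 5 with ranked peaks up to an IDR of 0.05 (against 30.2%). It was 1 without replicate 1 (against 14.6%) and 1 without replicate 2 (against 23.0%). The number with 8 or more peaks, 2, was tried under alternatives chosen after the data were seen. It became 0 without replicate 1 (against 0.172%), stayed at 2 without replicate 2 (against 0.753%), and was 1 inside the gene body (0 bp; against 0.696%), 1 at an IDR of at most 0.001 (against 0.222%) and 1 with overlaps merged (against 0.76%). Peaks with a C/EBP-like word numbered 6 with 1 mismatch, against 0 exact. Peaks found in both replicates were 23 in the ranked lists, against 14 in the thresholded lists.

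Of the 10 genes, those with a peak numbered 5 to 8 (7 as reported, against 41.5% of protein-coding genes). They were 5 without replicate 1 (against 29.2%), 7 without replicate 2 (against 41.4%), 6 at 0 bp (against 15.7%), 7 at 5000 bp (against 56.3%) and 8 at an IDR of at most 0.05 (against 50.7%). Their peaks numbered 16 to 33 (24 as reported), with 16 without replicate 1 and 21 without replicate 2. Of the 47 other pathway genes, those with a peak numbered 22 at 0 bp (against 15.7%) to 38 at 5000 bp (against 56.3%), with 25 without replicate 1 (against 29.2%) and 34 without replicate 2 (against 41.4%). The depth of the replicates is unknown, so a missing peak was not detected at that depth and is not shown to be absent.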
